A study of Mus musculus with 17 samples.

Results

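Overexpression of the microRNA cluster 99b/let-7e/125a was compared directly with overexpression of miR-155 in cultured mouse marrow cells. The comparison took the 3 arrays of dataset A labelled with the cluster and the 2 arrays of dataset A labelled with miR-155, 5 of the 17 arrays of the series. All 8 arrays of dataset A entered the fit, with 3 arrays of the empty vector beside them. All 3 groups shared 1 starting material, marrow of C57Bl/6 mice given 150 mg/kg of 5-fluorouracil, which depletes cycling cells, and used as donors 4 days later. It was cultured for 7 days in StemSpan medium with serum, SCF, IL-11 and Flt3 ligand. The cells were transduced with the retroviral vector MXW carrying the cluster, miR-155 or no microRNA, and viable EGFP+ cells were collected 5 days after the first transduction. The collected cells were therefore a mixed population of vector-bearing marrow cells, and neither the ages of the mice nor the amount of each mature microRNA was given or measured here. The labels describe independent biological samples, and the p-values measure the spread among these arrays.

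MicroRNAs are short RNAs that guide a silencing complex to messenger RNAs, mostly through the seed near their 5′ end, and so lower the abundance or translation of those messengers. The cluster members miR-99b, let-7e and miR-125a are made from a common precursor, and miR-125 family members are known for expanding stem and myeloid cells in mouse marrow. miR-155 is known for its induction in activated myeloid and lymphoid cells and for a myeloid expansion when it is overexpressed in mouse marrow.

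The mature 5′ arms of the 4 microRNAs are shown because their seeds define which messengers each vector could address. They are taken from RefSeq annotation of GRCm38.p6, written 5′ to 3′, with the seed (bases 2 to 8) in capitals.
mmu-miR-99b-5p: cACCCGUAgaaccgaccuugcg
mmu-let-7e-5p: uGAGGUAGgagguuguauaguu
mmu-miR-125a-5p: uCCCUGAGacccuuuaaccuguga
mmu-miR-155-5p: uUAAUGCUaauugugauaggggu
All 4 names matched, and 0 of the 6 pairs shared a seed. The 3 mature arms of the cluster lie on the plus strand at chr17:17830194-17830215, chr17:17830366-17830387 and chr17:17830817-17830840, inside the protein-coding gene Spaca6, and their hairpins span 692 bases. The mature arm of miR-155 lies on the plus strand at chr16:84714143-84714165, inside the long noncoding RNA gene Mir155hg. A probe for Spaca6 was not detected on any cluster array and was detected on 1 miR-155 array, and it does not measure what the vectors express.

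The share of probes with a detection p under 0.05 ran from 34.8% (miR-155 array 2) to 38.7% in dataset A. Pearson correlations of normalized log2 intensity lay between 0.98 and 0.99 for the 28 pairs of arrays, without a gap between pairs of the same vector and pairs of different vectors. The marrow identity of the cells was visible on every array. Prtn3, a granule protease of promyelocytes, stood at 14.14, 14.31 and 14.19 with the cluster, 13.78 and 13.90 with miR-155 and 14.37, 13.99 and 14.23 with the empty vector, on the scale of log2 normalized intensity used for all levels below. Lyz2, the lysozyme of granulocytes and macrophages, stood at 13.81, 14.15 and 14.14 with the cluster, 13.53 and 13.13 with miR-155 and 13.79, 14.07 and 14.07 with the empty vector. In such mixed samples, fewer cells of a type and less RNA per cell cannot be told apart.

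The genes called between cluster and miR-155 were mainly higher with the cluster, while over all genes tested 5088 differences were positive and 5184 negative. Of 10272 genes tested, 89 passed the limma adjusted p of 0.05 (0.866%), 77 of them higher (0.75%) and 12 lower (0.117%) with the cluster. The largest rises were in Rab34, Cited4, the adult beta-globin genes Hbb-bs and Hbb-bt, and the lipid enzyme gene Lpl, and the largest fall was in Tmem119. At an unadjusted p under 0.05 there were 1059 genes (10.3%), 608 higher and 451 lower. The 77 rises had a median log2 difference of 1.11 (0.76 to 2.64) and the 12 falls one of -0.96 (-1.69 to -0.87). The count rested on both miR-155 arrays. Without miR-155 array 2, 15 genes were called, 14 of them among the 89, and without miR-155 array 1 it was 58, 43 of them among the 89. Leaving out the unnumbered cluster array gave 58 and leaving out cluster array 3 gave 59. With array medians made equal in place of quantiles, the median of all genes shifted to 0.23 higher with the cluster, and 31 genes were called higher and 0 lower.

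**Figure D1:**
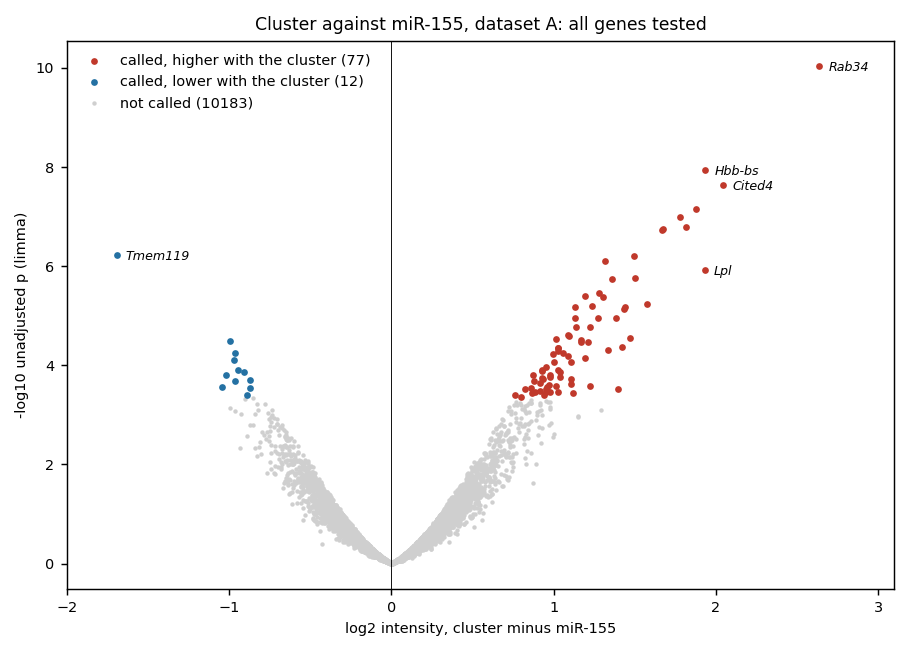
Each point is 1 of the 10272 genes, with the log2 difference between cluster and miR-155 on the x axis and the -log10 of the unadjusted limma p on the y axis. The 77 called rises (red) reach 2.64 in Rab34, the 12 called falls (blue) reach -1.69 in Tmem119, and grey points were not called.

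Rab34 encodes a small GTPase that positions lysosomes and takes part in membrane traffic. Its level was 7.91, 7.84 and 7.97 with the cluster, 5.20 and 5.35 with miR-155 and 6.40, 6.10 and 6.46 with the empty vector. The 3 groups did not overlap, with the empty vector between the others. The cluster arrays were 6.22-fold above the miR-155 arrays (log2 2.64 ± 0.18, SE, adjusted p = 9.27e-07). Both arms differed from the empty vector, by 1.59 with the cluster (adjusted p = 6.62e-05) and -1.05 with miR-155 (adjusted p = 0.00766). A pair of other probes of Rab34 gave log2 differences of 1.41 and 1.86 between cluster and miR-155. The size depended on background correction: without it the log2 difference was 1.51, still called.

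Among the 15 largest rises, Cited4 and Catsperz were those in which the miR-155 mean did not lie below the empty vector. Cited4, a transcriptional co-activator, stood at 7.64, 7.35 and 7.26 with the cluster, 5.35 and 5.40 with miR-155 and 5.52, 4.93 and 5.05 with the empty vector. The miR-155 values lay within the range of the empty vector, and the cluster arrays stood above both. The difference between cluster and miR-155 was 4.12-fold (log2 2.04 ± 0.21, adjusted p = 7.91e-05), and that between cluster and empty vector was 2.25 (adjusted p = 1.14e-05). Without background correction the log2 difference from miR-155 was 1.11, still called. Catsperz, an accessory subunit of a sperm calcium channel, stood at 8.41, 8.46 and 8.55 with the cluster, 6.91 and 6.69 with miR-155 and 6.30, 6.35 and 6.81 with the empty vector. It was 3.19-fold higher with the cluster than with miR-155 (log2 1.68 ± 0.20, adjusted p = 2.38e-04), and miR-155 overlapped the empty vector.

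The adult beta-globin genes rose with the cluster relative to miR-155. Hbb-bs stood at 8.33, 8.72 and 8.49 with the cluster, 6.52 and 6.64 with miR-155 and 7.96, 7.77 and 8.01 with the empty vector (3.82-fold, log2 1.93 ± 0.19, adjusted p = 5.78e-05). Hbb-bt stood at 7.63, 8.13 and 7.60 with the cluster, 5.94 and 5.88 with miR-155 and 7.21, 7.38 and 6.96 with the empty vector (3.68-fold, log2 1.88 ± 0.21, adjusted p = 1.81e-04). In both genes the 3 groups were apart, in the order cluster, empty vector, miR-155. Hbb-bs and Hbb-bt are near-identical, and the assignment of their probes is uncertain. Against the empty vector, miR-155 was lower by -1.33 in Hbb-bs (adjusted p = 0.00109) and -1.28 in Hbb-bt (adjusted p = 0.00424), while the cluster differed by 0.60 in each (adjusted p = 0.151 and 0.226). Other erythroid genes gave no call. Of 12 tested members of the erythroid list, which does not hold this pair, 0 were called, against 0.866% of all genes tested. Among these members 7 were positive and 5 negative, and the median was 0.08. At an unadjusted p under 0.05, 2 were higher and 2 lower, against 5.92% and 4.39% of all genes. The 2 lower ones, Car2 and Tfrc, had the largest differences of the list. Car2, the carbonic anhydrase of red cell precursors, stood at 5.90, 5.89 and 5.41 with the cluster, 6.27 and 6.71 with miR-155 and 5.15, 5.57 and 5.36 with the empty vector (log2 -0.76, adjusted p = 0.135). Tfrc, the transferrin receptor of iron uptake, differed by -0.68 (adjusted p = 0.211). The alpha-globin gene Hba-a1, singled out after its value was seen, was detected on 1 cluster array and on 0 miR-155 arrays.

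Several of the largest rises encode enzymes, secreted proteins or membrane proteins. Lpl, the lipoprotein lipase that releases fatty acids from triglyceride and is made by macrophages, stood at 9.41, 9.78 and 10.20 with the cluster, 8.23 and 7.50 with miR-155 and 9.13, 8.76 and 9.36 with the empty vector. It was 3.81-fold higher with the cluster than with miR-155 (log2 1.93 ± 0.26, adjusted p = 9.98e-04), and the cluster arrays lay above both other groups. Cbr3, a carbonyl reductase, was 3.51-fold higher, with all 3 groups apart. Fkbp11, a protein-folding enzyme of the endoplasmic reticulum, stood at 9.92, 9.74 and 9.83 with the cluster, 8.29 and 7.81 with miR-155 and 9.16, 8.82 and 8.78 with the empty vector (3.44-fold, adjusted p = 2.05e-04). Lrg1, a secreted leucine-rich glycoprotein stored in neutrophil granules, stood at 10.33, 9.93 and 9.91 with the cluster, 8.79 and 8.33 with miR-155 and 10.01, 9.63 and 9.76 with the empty vector (2.83-fold, adjusted p = 0.00131). In Lrg1 the cluster and empty-vector arrays overlapped and the miR-155 arrays lay below both. Timp2, an inhibitor of matrix metalloproteinases, stood at 6.23, 6.30 and 6.30 with the cluster, 5.03 and 4.37 with miR-155 and 5.51, 5.60 and 6.28 with the empty vector (2.97-fold, adjusted p = 0.00327). Timp2 was detected on 1 of the 2 miR-155 arrays, and without background correction its log2 difference was 0.63 in place of 1.57 and no longer called (adjusted p = 0.0724). Without miR-155 array 2 the calls of Lpl (adjusted p = 0.0655), Lrg1 (0.0732) and Timp2 (0.128) were lost.

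The remaining named rises were between 2.70-fold and 2.82-fold. Fnbp1l, which couples curved membrane to actin, was 2.82-fold higher with the cluster (adjusted p = 6.42e-04). The myosin light chain gene Myl10 was 2.78-fold higher (adjusted p = 0.0095), and Chst13, a chondroitin sulfotransferase, 2.70-fold (adjusted p = 0.00345). Csta2, a stefin that inhibits cysteine proteases, stood at 7.16, 7.57 and 7.30 with the cluster, 6.27 and 5.54 with miR-155 and 8.15, 7.84 and 7.88 with the empty vector. It was 2.71-fold higher with the cluster than with miR-155, and both vectors were below the empty vector, by -0.61 (adjusted p = 0.298) and -2.05 (adjusted p = 8.18e-05). The stefin genes are near-identical, so the member behind each stefin probe is uncertain. Myl10 (adjusted p = 0.236) and Csta2 (0.145) lost their call without miR-155 array 2, and Chst13 (0.0503) without miR-155 array 1. Without background correction the log2 difference of Chst13 was 0.58 in place of 1.43 and no longer called (adjusted p = 0.0635).

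Dennd2a and Cxcl16 were not detected on either miR-155 array, so that their miR-155 levels are upper bounds. Dennd2a, an exchange factor for Rab GTPases, stood at 5.87, 6.02 and 6.40 with the cluster, 4.42 and 4.43 with miR-155 and 5.41, 5.14 and 5.36 with the empty vector, at least 2.78-fold higher with the cluster than with miR-155 (adjusted p = 2.38e-04). Without background correction the log2 difference of Dennd2a was 0.62 (adjusted p = 0.0313), in place of 1.67. The chemokine gene Cxcl16 stood at 5.42, 5.40 and 5.43 with the cluster, 4.36 and 4.30 with miR-155 and 4.82, 5.11 and 5.33 with the empty vector, at least 1.74-fold higher (adjusted p = 0.00905). Each bound sets the mean of the cluster arrays against the dimmest signal that counts as detected on the miR-155 arrays, on the normalized scale. The bounds are on background-corrected values. Without background correction the log2 difference of Cxcl16 was 0.36, in place of 1.09, and no longer called (adjusted p = 0.133). Cxcl16 lost its call without miR-155 array 1 (adjusted p = 0.0526) and without miR-155 array 2 (0.128). Of the 77 rises, 8 were not detected on either miR-155 array and 0 were undetected with the cluster. The other 6, named after their values were seen, were Aif1l, Cldn11, Sdc3, Rassf8, Pdlim4 and Kdelr3, with bounds between 1.37-fold in Kdelr3 and 2.03-fold in Aif1l.

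**Figure D2:**
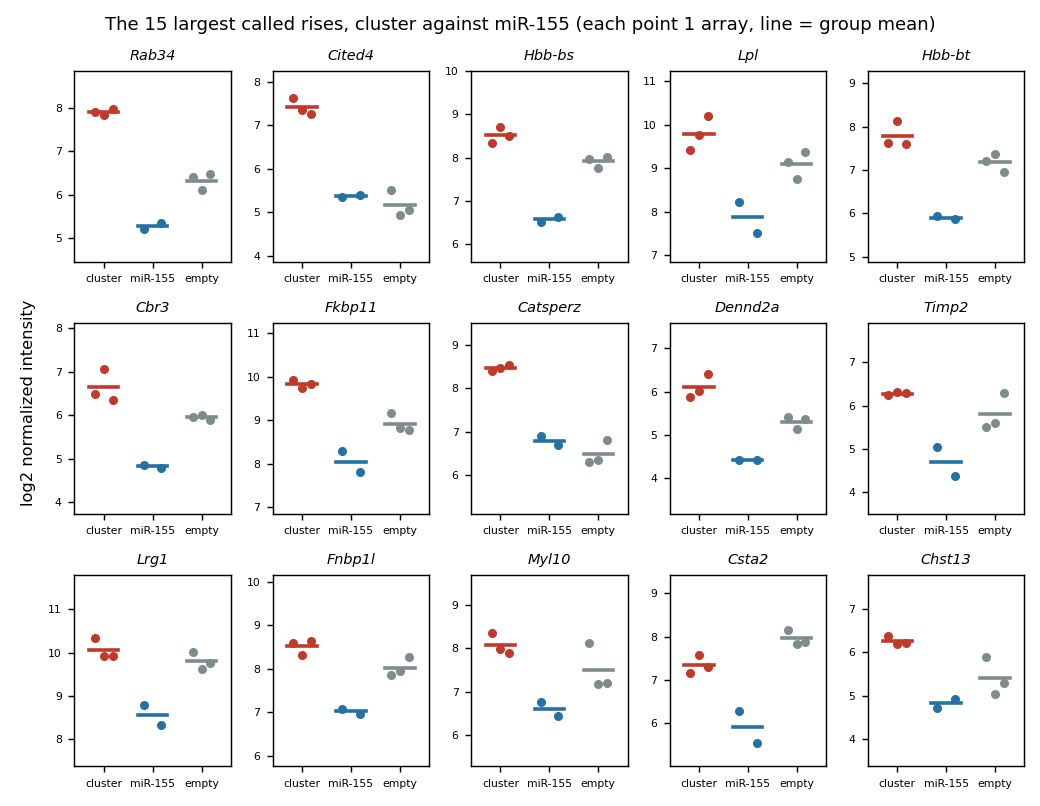
Log2 normalized intensity of the 15 largest called rises, 1 panel a gene, with a point for each array (3 cluster, 2 miR-155, 3 empty vector) and a line at each group mean. The cluster arrays lie above the miR-155 arrays in all 15 panels, and in Cited4 and Catsperz the miR-155 arrays lie beside the empty vector.

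Tmem119, a membrane protein known as a marker of microglia in the brain, had the largest fall. Its level was 6.06, 5.52 and 5.40 with the cluster, 7.26 and 7.45 with miR-155 and 6.11, 6.54 and 6.36 with the empty vector. The cluster arrays lay below the empty vector and the miR-155 arrays above it, without overlap. The difference was 3.24-fold (log2 -1.69 ± 0.22, adjusted p = 6.42e-04), made up of -0.68 with the cluster (adjusted p = 0.181) and 1.02 with miR-155 (adjusted p = 0.028) against the empty vector. It was called with each array left out in turn, and not with array medians made equal (adjusted p = 0.0611).

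The other 11 falls were smaller. Slc46a3, a lysosomal membrane transporter, stood at 7.08, 6.71 and 6.50 with the cluster, 7.65 and 7.97 with miR-155 and 7.15, 7.82 and 7.66 with the empty vector (log2 -1.05 ± 0.23, adjusted p = 0.039). Atp6v0a1, a subunit of the proton pump that acidifies lysosomes, stood at 7.51, 7.38 and 7.26 with the cluster, 8.10 and 8.70 with miR-155 and 7.90, 8.17 and 8.34 with the empty vector (log2 -1.02 ± 0.21, adjusted p = 0.0283). In both genes the miR-155 arrays overlapped the empty vector and the cluster arrays lay below both. Another probe of Atp6v0a1 gave -0.14. Btla, an inhibitory receptor of lymphocytes, stood at 5.29, 5.29 and 5.36 with the cluster, 6.34 and 6.29 with miR-155 and 6.01, 6.26 and 6.27 with the empty vector (log2 -0.996, adjusted p = 0.01). Nrm, which encodes the nuclear envelope protein nurim, stood at 9.95, 9.72 and 9.65 with the cluster, 10.50 and 10.78 with miR-155 and 10.70, 10.78 and 10.72 with the empty vector (log2 -0.87, adjusted p = 0.0313). Of the 12 falls, Btla and Nrm were those in which the cluster arm itself was called against the empty vector (-0.87, adjusted p = 0.0125, and -0.96, adjusted p = 0.00762).

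The miR-155 mean stood above the empty vector in 11 of the 12 falls, among them the histamine receptor gene Hrh2 and the interferon-induced gene Ifi27l2a. Hrh2 stood at 4.59, 4.41 and 4.89 with the cluster, 5.66 and 5.49 with miR-155 and 4.81, 4.82 and 4.65 with the empty vector (log2 -0.95, adjusted p = 0.0248). Ifi27l2a stood at 5.37, 5.04 and 5.20 with the cluster, 6.33 and 6.01 with miR-155 and 5.50, 5.81 and 5.28 with the empty vector (log2 -0.96, adjusted p = 0.0323). In both, cluster and empty vector overlapped, and miR-155 differed from the empty vector by 0.82 in Hrh2 (adjusted p = 0.0501) and by 0.64 in Ifi27l2a (adjusted p = 0.233). For Hrh2, which was detected on 2 of the 3 cluster arrays, another probe gave a log2 difference of 0.16, of the opposite sign. The remaining falls were Cyp4f18, a cytochrome P450 that inactivates leukotriene B4 in mouse neutrophils (-0.96), Rapsn, which anchors acetylcholine receptors in muscle (-0.97), Fam193b (-0.91), the tubulin gene Tube1 (-0.89) and Tssc4 (-0.87). In Cyp4f18, Rapsn, Fam193b and Tssc4 both miR-155 arrays lay above all empty-vector arrays, as in Hrh2 and Ifi27l2a. Other probes gave -0.03 for Cyp4f18 and -0.09 for Tssc4. Of the 21 alternative settings, Tube1 was called under 4 and Tssc4 under 5. Without miR-155 array 2, the 11 falls other than Tmem119 were no longer called, with adjusted p between 0.128 and 0.551, for example 0.508 in Slc46a3, 0.128 in Btla and 0.147 in Hrh2. Without miR-155 array 1, 9 of these 11 lost their call, all but Atp6v0a1 and Rapsn, with Nrm at 0.0608 and Ifi27l2a at 0.193. Of the 12 falls, 8 lost their call without cluster array 3, 7 without the unnumbered cluster array, 5 without cluster array 1, 3 without empty-vector array 3 and 1 without empty-vector array 1.

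**Figure D3:**
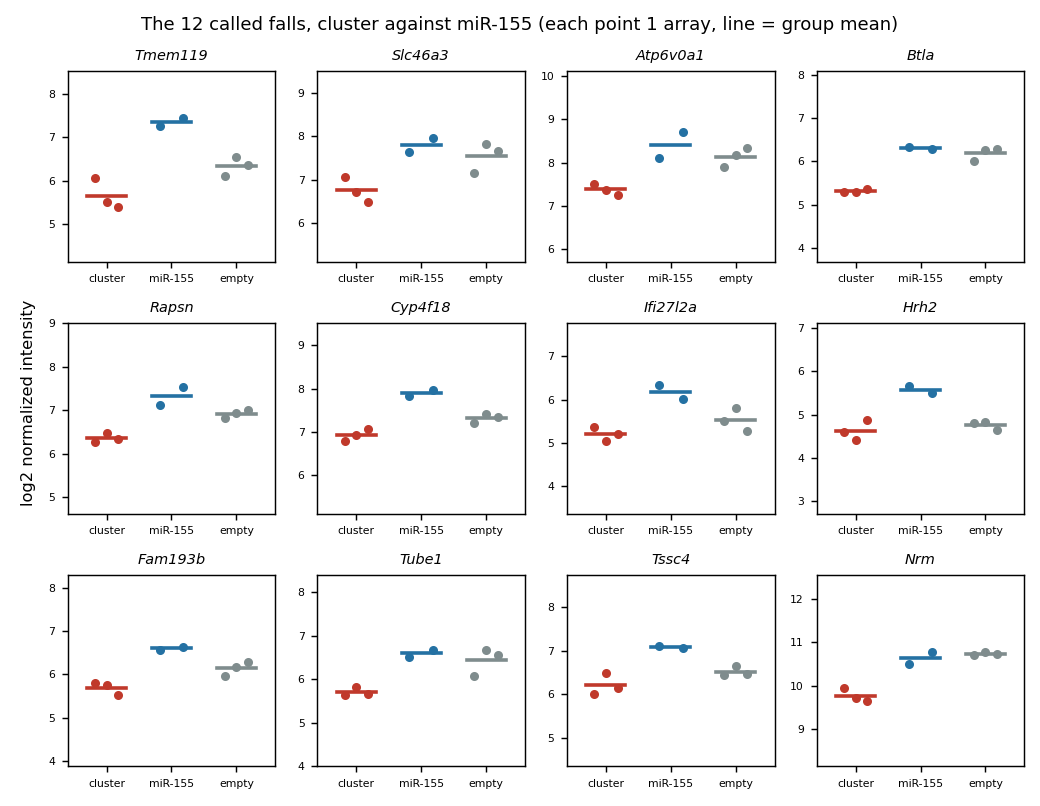
Log2 normalized intensity of the 12 called falls, 1 panel a gene, with a point for each array and a line at each group mean. The cluster arrays lie below the miR-155 arrays in every panel, by -1.69 in Tmem119 and by -0.87 in Nrm.

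The empty vector places each of the 89 genes. Its mean lay between the 2 other means in 60 of the 77 rises (77.9%) and in 11 of the 12 falls (91.7%), against 38.2% of all genes tested. Since the genes were chosen for a large difference between the outer groups, this position is a description. In the rises the median difference from the empty vector was 0.47 with the cluster and -0.79 with miR-155, and the empty-vector mean was nearer to the cluster in 47 and nearer to miR-155 in 30. In the falls these medians were -0.61 and 0.44, with 6 nearer to each. Of the 17 rises outside that pattern, 12 had both vectors below the empty vector. The stefin Cstdc4 was the extreme, at -1.95 with the cluster and -3.05 with miR-155. Among the other 11 were Chil3, Chil4, Csta2, Cd177 and the myeloid lectin receptor genes Clec4a1 and Clec4b1, named after their values were seen. The remaining 5 had both vectors above the empty vector, with Cited4 and Catsperz among them. On its own, the cluster against the empty vector gave 67 called genes (0.652%), 32 higher (0.312%) and 35 lower (0.341%), with 7.8% at an unadjusted p under 0.05, and miR-155 against the empty vector gave 108 (1.05%), 20 higher (0.195%) and 88 lower (0.857%), with 8.97% at that unadjusted p. These comparisons share the empty-vector arrays with each other and their tested arrays with the direct comparison.

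**Figure D4:**
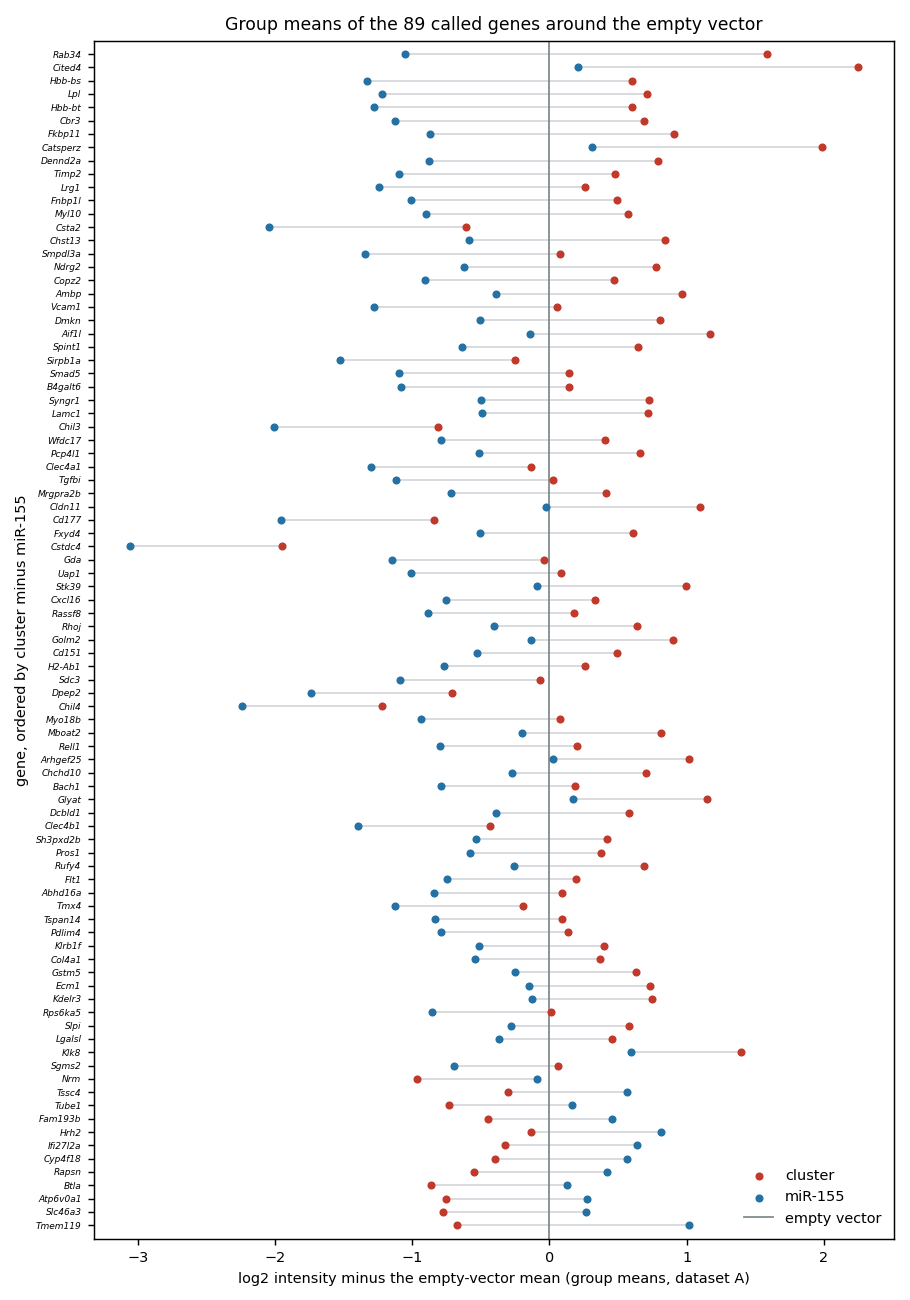
The 89 called genes, 1 a row, ordered by the difference between cluster and miR-155. The x axis is the group mean of log2 intensity minus the empty-vector mean, with the cluster in red, miR-155 in blue and the empty vector as the vertical line, which lies between the points in 60 of 77 rises and 11 of 12 falls.

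Published targets of miR-155 mostly had positive differences between cluster and miR-155, and 3 of them rose. Of 42 genes in the list, 36 had a probe and 28 were tested. The called rises were Smad5, Tspan14 and Bach1, and 0 were called lower, against 0.75% and 0.117% of all genes tested. At an unadjusted p under 0.05, 13 were higher and 0 lower, where the background was 5.92% and 4.39%. Signs were positive in 24 and negative in 4, and the median was 0.42, against -0.003 for all genes tested. The list's median was 0.013 for cluster against empty vector and -0.415 for miR-155 against empty vector. Per array, the median deviation of its members from their mean over the 8 arrays was 0.04, 0.11 and 0.15 with the cluster, -0.22 and -0.40 with miR-155 and 0.07, 0.10 and 0.09 with the empty vector.

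Smad5, a signal transducer of bone morphogenetic proteins, stood at 7.00, 6.76 and 6.97 with the cluster, 5.89 and 5.46 with miR-155 and 6.89, 6.76 and 6.66 with the empty vector. It was 2.35-fold higher with the cluster than with miR-155 (log2 1.23 ± 0.19, adjusted p = 0.00327), and the cluster arrays overlapped the empty vector. Another probe of Smad5 gave 0.02. Tspan14, a tetraspanin that escorts the protease ADAM10, stood at 10.23, 10.22 and 10.16 with the cluster, 9.16 and 9.39 with miR-155 and 9.84, 10.11 and 10.38 with the empty vector (log2 0.93 ± 0.19, adjusted p = 0.0306). Bach1, a repressor of heme oxygenase, stood at 6.11, 6.44 and 6.04 with the cluster, 5.25 and 5.19 with miR-155 and 6.08, 5.61 and 6.34 with the empty vector (log2 0.98 ± 0.22, adjusted p = 0.0432). In all 3 genes only the miR-155 arrays stood apart. Members below the threshold included Rheb (0.75, adjusted p = 0.0609), the kinase adaptor Tab2 (0.72, 0.0698) and Sla (0.69, 0.0896), while Inpp5d, which encodes the phosphatase SHIP1, differed by 0.20 (adjusted p = 0.778). Without miR-155 array 2 the list's median was 0.34 and 0 members were called, with Smad5 at an adjusted p of 0.128, Tspan14 at 0.185 and Bach1 at 0.393. Without miR-155 array 1 the median was 0.39 and 1 was called, with Tspan14 at 0.164 and Bach1 at 0.135. Leaving out any 1 cluster array also ended the calls of Tspan14 (adjusted p = 0.0662 to 0.0975) and Bach1 (0.0643 to 0.172), and leaving out empty-vector array 1 that of Bach1 (0.0596), which was called under 7 of the 21 alternatives.

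Published targets of the cluster's own microRNAs gave 0 falls at the adjusted threshold, at which 0.117% of all genes tested were called lower. Of 27 tested miR-125 targets, 6 were lower and 1 higher at an unadjusted p under 0.05, against 4.39% and 5.92% of all genes. Signs were positive in 8 and negative in 19, against 5088 and 5184 over all genes. The list's median was -0.22, or -0.08 without miR-155 array 2. With array medians made equal that median was 0.07, below the 0.23 of all genes. The list's median was -0.23 for cluster against empty vector and -0.01 for miR-155 against empty vector. Arid3a, a DNA-binding factor of B and progenitor cells, stood at 7.03, 7.13 and 7.24 with the cluster, 8.47 and 7.54 with miR-155 and 8.79, 8.69 and 8.54 with the empty vector (log2 -0.87 ± 0.23, adjusted p = 0.1). The miR-155 arrays lay apart from each other and between the other groups, and without miR-155 array 2 the adjusted p was 0.0317. Against the empty vector Arid3a differed by -1.54 with the cluster (adjusted p = 8.71e-04) and by -0.67 with miR-155 (adjusted p = 0.295). Abtb1 was at 7.29, 6.64 and 6.19 with the cluster, 7.59 and 7.43 with miR-155 and 7.52, 7.98 and 7.80 with the empty vector (log2 -0.80, adjusted p = 0.212). Traf6, a ubiquitin ligase of Toll-like receptor signalling, differed by -0.75 (adjusted p = 0.103), and Mavs, an adaptor of RNA sensing, by -0.70 (adjusted p = 0.117).

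Of 17 tested miR-99 targets, 0 were called, against 0.866% of all genes tested. At an unadjusted p under 0.05, 3 were lower and 1 higher (all genes 4.39% and 5.92%). Against 5088 positive and 5184 negative signs over all genes, these targets had 4 positive and 13 negative. Their median was -0.285, and 0.02 with array medians made equal, again below the 0.23 of all genes. Ctdspl, a phosphatase, differed by -0.59 (adjusted p = 0.323), the growth factor receptor gene Igf1r by -0.50 (0.383) and Mtor, the growth-controlling kinase, by -0.40 (0.499). The Wnt effector Tcf7l2 went the other way, at 0.98 (adjusted p = 0.0993). Of 26 tested let-7 targets, Bach1 was the 1 called, as a rise, against 0.75% of all genes tested. At an unadjusted p under 0.05, 5 were higher and 1 lower, against 5.92% and 4.39% of all genes. Signs were positive in 12 and negative in 14, and the median was -0.02. Arid3a stands in the miR-125 and let-7 lists, and Bach1 in the miR-155 and let-7 lists.

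Monocyte and macrophage genes had positive differences in most members. Of 24 tested, 0 passed the limma adjusted p, against 0.866% of all genes tested. At an unadjusted p under 0.05, 13 were higher and 0 lower, against 5.92% and 4.39% of all genes. Of the 35 genes in the list 32 had a probe. Signs were positive in 21 and negative in 3, against 5088 and 5184 over all genes, and the median was 0.44, from -0.21 for cluster against empty vector and -0.67 for miR-155 against empty vector. Per array, the median deviation was 0.01, 0.11 and -0.02 with the cluster, -0.34 and -0.51 with miR-155 and 0.19, 0.24 and 0.30 with the empty vector, so the groups did not overlap. The summed intensity of the list ranged from 45930 to 48990 with the cluster, from 33840 to 40530 with miR-155 and from 41360 to 51030 with the empty vector. The part of a changed share of monocytes and macrophages in the called rises was not tested.

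The single members are given as values. Clec4n, a fungal-pattern receptor (dectin-2), stood at 7.28, 7.28 and 6.78 with the cluster, 6.55 and 6.16 with miR-155 and 7.45, 7.01 and 7.25 with the empty vector (log2 0.76, adjusted p = 0.137). Csf1r, the receptor for macrophage colony-stimulating factor, stood at 9.05, 9.22 and 9.21 with the cluster, 8.51 and 8.47 with miR-155 and 9.02, 9.28 and 9.22 with the empty vector (log2 0.67, adjusted p = 0.103). Lyz2 differed by 0.70 (adjusted p = 0.132), Gpnmb by 0.66 (0.147) and the integrin gene Itgam by 0.63 (0.209). In Clec4n and Csf1r the cluster arrays overlapped the empty vector and the miR-155 arrays lay lower. Irf8, a regulator of monocyte fate, had the opposite sign (-0.33, adjusted p = 0.691). Csf1r is also in the list of miR-155 targets and that of cytokine receptors.

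Neutrophil maturation genes had medians below the empty vector in both arms, and 3 of them were higher with the cluster than with miR-155. Of 30 genes, 27 had a probe and 26 were tested, the rises were Chil3, Cstdc4 and Cd177, 0 fell, and 11 were higher and 0 lower at an unadjusted p under 0.05. Over all genes tested, 0.75% were called higher and 0.117% lower, and 5.92% were higher and 4.39% lower at that unadjusted p. The median was 0.27, with -0.61 for cluster against empty vector and -0.69 for miR-155 against empty vector. The summed intensity ranged from 38520 to 44360 with the cluster, from 40360 to 40570 with miR-155 and from 59930 to 66780 with the empty vector, so that the cluster and miR-155 arrays overlapped in the sum. The per-array median deviations did not overlap, at -0.344, -0.105 and -0.091 with the cluster, -0.443 and -0.444 with miR-155 and 0.609, 0.328 and 0.498 with the empty vector. Chil3, a chitinase-like secreted protein, stood at 10.36, 10.22 and 10.10 with the cluster, 9.44 and 8.63 with miR-155 and 11.24, 11.07 and 10.81 with the empty vector (log2 1.20 ± 0.23, adjusted p = 0.0161). Cstdc4 stood at 8.80, 9.41 and 9.26 with the cluster, 8.42 and 7.68 with miR-155 and 11.13, 11.01 and 11.17 with the empty vector (log2 1.11 ± 0.23, adjusted p = 0.0306). Cd177, a surface glycoprotein of neutrophils, stood at 6.36, 5.86 and 6.50 with the cluster, 5.59 and 4.66 with miR-155 and 7.10, 6.99 and 7.15 with the empty vector (log2 1.12 ± 0.25, adjusted p = 0.0447). Cd177 was detected on 1 of the 2 miR-155 arrays, and its 4.66 on miR-155 array 2 is at the level of the dimmest detected signal there, so that value is an upper bound. Another probe of Cd177 gave 0.26. In Chil3 and Cstdc4 the 3 groups were apart, in the order empty vector, cluster, miR-155.

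Among the genes of secondary granules, none named here was called. Camp, an antimicrobial peptide gene, differed by -0.31 (adjusted p = 0.748), Ngp by 0.14 (0.881), Lcn2 by 0.09 (0.939) and Ltf, which encodes lactoferrin, by 0.44 (0.563). The primary granule genes had 0 called of 14 tested, against 0.866% of all genes tested. Their median was 0.10, with Nkg7 at 0.52 (adjusted p = 0.278) and Prtn3 at 0.37 (0.518). Without miR-155 array 2 the maturation list had 0 called members, with Chil3 at an adjusted p of 0.452, Cstdc4 at 0.574 and Cd177 at 0.666, and without miR-155 array 1 it had 5 and a median of 0.47. With array medians made equal it had 0. Without background correction Chil3, Cstdc4 and Cd177 were not called. Their log2 differences were then 1.09 (adjusted p = 0.0558), 0.93 (0.0936) and 0.47 (0.201). Cd177 was also lost without cluster array 1 (adjusted p = 0.104), cluster array 3 (0.148), empty-vector array 1 (0.0608) or empty-vector array 3 (0.0724), and was called under 6 of the 21 alternatives. Cstdc4 was also lost without the unnumbered cluster array (0.132), cluster array 3 (0.0886) or empty-vector array 3 (0.05), and Chil3 without the unnumbered cluster array (0.0582).

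All 11 tested members of the dendritic cell and MHC class II list, of 23 with a probe, had positive differences. Over all genes, 5088 were positive and 5184 negative. The list's median was 0.32, and between 0.07 and 0.53 under the 21 alternatives. Of the 11 members 1 was called higher, against 0.75% of all genes tested. H2-Ab1, the MHC class II beta chain, was called, at 8.29, 8.38 and 8.66 with the cluster, 7.26 and 7.58 with miR-155 and 8.28, 8.18 and 8.11 with the empty vector (2.04-fold, log2 1.03 ± 0.19, adjusted p = 0.0132). The 3 groups did not overlap, with the cluster just above the empty vector and miR-155 below it. A pair of other H2-Ab1 probes gave 0.71 and 0.94. Its partner H2-Aa differed by 1.002 (adjusted p = 0.129) and was detected on 1 of the 2 miR-155 arrays, H2-Eb1 by 0.68 (0.212) and the invariant chain Cd74 by 0.62 (0.212). H2-Ab1 lost its call without miR-155 array 1 (adjusted p = 0.121), miR-155 array 2 (0.0732) or cluster array 3 (0.0562).

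Eosinophil granule genes had the opposite sign, with 0 of 4 tested called and all 4 negative. Over all genes tested, 0.866% were called. The list's median was -0.34, or -0.2 without miR-155 array 2. Per array, its median deviation was -0.255, -0.22 and -0.484 with the cluster and -0.187 and 0.443 with miR-155. Only miR-155 array 2 thus stood well apart from the cluster arrays. Prg2, the eosinophil major basic protein, stood at 8.20, 8.44 and 7.68 with the cluster, 8.60 and 9.28 with miR-155 and 9.64, 8.94 and 9.65 with the empty vector (log2 -0.83, adjusted p = 0.219). In the mast cell and basophil list 0 of 16 were called, signs were positive in 8 and negative in 8, and the median was 0.02. Its largest differences were in the IgE receptor gene Fcer1a (0.77, adjusted p = 0.098) and the basophil protease gene Mcpt8 (0.75, 0.139). Stem and progenitor genes had 0 of 24 called, 12 positive and 12 negative signs and a median of -0.02. The largest differences there were in Egfl7 (-0.52, adjusted p = 0.277) and Hoxb4 (0.48, 0.416). Other probes of Egfl7 gave -0.47 and 0.19. Megakaryocyte and platelet genes (0 of 13) had a median of -0.05 and lymphoid genes (0 of 12) one of 0.01.

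Genes of cell death and the p53 response had mostly negative differences. Of 25 tested, 0 were called, and 3 were lower and 2 higher at an unadjusted p under 0.05, against 4.39% and 5.92% of all genes. Signs were positive in 5 and negative in 20, against 5088 and 5184 over all genes. The list's median was -0.21, or -0.11 without miR-155 array 2. With array medians made equal it was 0.10, below the 0.23 of all genes. Bmf, a death-promoting BCL2 relative, stood at 4.99, 5.29 and 4.89 with the cluster, 5.63 and 5.91 with miR-155 and 4.86, 5.60 and 5.86 with the empty vector (log2 -0.72, adjusted p = 0.277). Cytokine receptor and SOCS genes had 0 of 24 called and a median of 0.21, with 5 higher and 1 lower at an unadjusted p under 0.05. Lysosome and endosome genes had 1 of 23 called, Rab34, and a median of 0.165, with 5 higher and 1 lower at that p. The chemokine and inflammation list had 1 of 17 called, Cxcl16, and a median of 0.05, with 6 higher and 2 lower. Over all genes tested, 0.866% were called. DNA replication (0 of 29), mitosis (0 of 20), ribosome biogenesis and MYC target (0 of 19), cholesterol synthesis (0 of 16), interferon response (0 of 18) and immediate early genes (0 of 18) had medians between -0.07 and 0.08. At the same unadjusted p, immediate early genes had 4 higher and 0 lower, and interferon response genes had 1 higher and 3 lower.

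**Figure D5:**
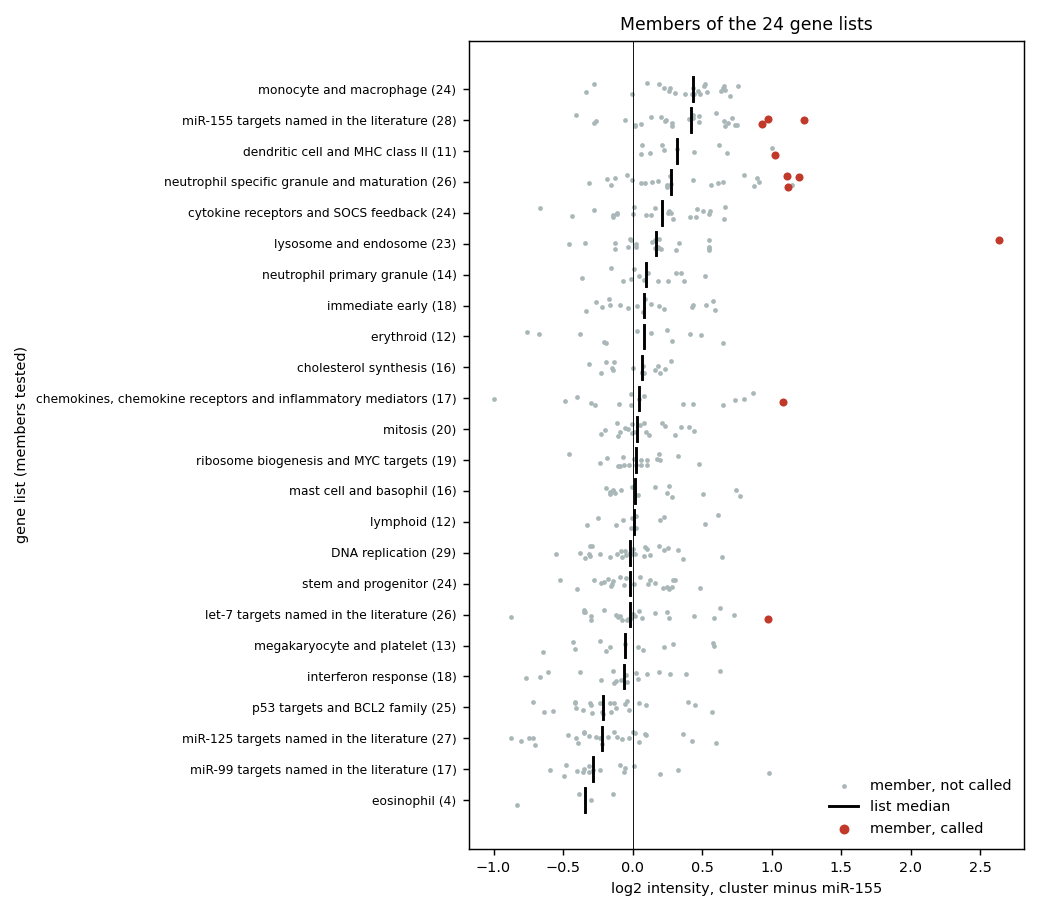
Log2 difference between cluster and miR-155 (x axis) for the tested members of the 24 gene lists, with 1 point a gene, called members in red and a bar at each list's median. Medians run from 0.44 in the monocyte and macrophage list to -0.34 in the eosinophil list.

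Dataset B held no miR-155 arrays, so it could be read only for the cluster arm, on 3 cluster and 3 empty-vector arrays that the direct comparison did not use. Of the 77 rises, 76 were detected on at least 3 arrays there, and cluster minus empty vector was positive in 61 (80.3%), against 55.3% of all genes, with a median of 0.28. Of the 12 falls, 11 were negative there, against 4007 of 8956 genes, with a median of -0.33. Cited4 averaged 6.45 with the cluster and 5.17 with the empty vector in dataset B, Catsperz 6.84 and 5.57, Rab34 7.15 and 5.98, and Arid3a 7.21 and 8.47. Lpl averaged 11.41 with the cluster and 10.64 with the empty vector, and Tmem119 5.61 and 6.12. For Timp2 (5.54 and 5.45) and Fkbp11 (9.12 and 8.998) the means lay close together. The 2 datasets were normalized separately, so levels are compared only within each.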

How the data were processed

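RNA was measured on Illumina mouse bead arrays with 45281 probes. The deposited signal intensity and detection p-value of each probe are the authors' scanner summaries, exported without normalization per the file headers, and the submitters' processing notes name GenomeStudio. The deposited series values are on a log2 scale; their ranks followed the signals (rank correlation at least 0.99999; medians 6.47 in dataset A and 6.8 in dataset B), and their normalization is not stated by labels or headers. The datasets were kept apart, as the study's design describes.

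Within dataset A, background was corrected with normexp using detection p-values (offset 16), arrays were quantile normalized, and limma 3.58.1 in R 4.3.3 fitted all 8 arrays with moderated variance and Benjamini-Hochberg adjustment. Of the probes, 34885 named 1 gene, 18 several and 10378 none; 34807 matched a RefSeq gene of GRCm38.p6. Each gene was represented by its brightest probe over both datasets, and 10272 of 19057 genes had a detection p under 0.05 on at least 2 arrays of dataset A. The number of arrays limits the precision. Groups came from the sample labels, and 1 cluster array carried no number of its own. Methods were tested on simulated data. Figures were drawn with matplotlib 3.10.9 in Python 3.11.15.

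Named genes were the 15 largest called changes in each direction whose arrays did not overlap, unnamed gene models aside, and up to 4 called members of each of 24 gene lists, or the 2 largest where none was called; others were chosen after their values were seen. The members and lists were chosen with earlier results of these data known. Alternatives covered background, scaling, filter, probe choice, variance model, a replicate block and leaving out each array.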

Additional observations from a re-analysis of the deposited data

How the results depend on the processing

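The direct comparison called 89 genes, and the number depended on the processing. It was 47 (41 higher, 6 lower) without background correction, 59 with an offset of 50, 31 (31 higher, 0 lower) with array medians made equal, 46 (40 higher, 6 lower) on the deposited series values and 27 (24 higher, 3 lower) without the filter, where 19057 genes were tested. Leaving out 1 array gave 15 to 86, the lowest without miR-155 array 2. Cyclic loess gave 73, a stricter filter 79, every probe 93, leaving out the empty vector 69, a trended robust prior 113, array weights 77 and, chosen after seeing the data, the brightest probe of dataset A alone 89.

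For cluster against empty vector (67), the counts were 42 without background correction, 21 with array medians made equal, 42 on the series values, 21 without the filter and 32 to 60 with 1 array left out. For miR-155 against empty vector (108), they were 56 without background correction, 61 with an offset of 50, 56 on the series values, 40 without the filter and 20 to 108 with 1 array left out, the lowest without miR-155 array 2. With array medians made equal it was 81, 0 higher and 81 lower, beside 20 and 88. The causes were not tested.

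On the series values, in which all cluster arrays carry a number, not every same-numbered pair deviated together, and the numbers were not taken as pairs (correlations -0.04 and -0.05 between cluster and miR-155, 0.32 and 0.06 between miR-155 and empty vector, -0.19, -0.03 and 0.36 between cluster and empty vector). With the replicate number as a block, on the series values, 29 genes (24 higher, 5 lower) were called between cluster and miR-155, 48 between cluster and empty vector and 43 between miR-155 and empty vector. Dennd2a was not called between cluster and miR-155 with the block (0.53, limma adjusted p = 0.0787).

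Of 35 called named genes, 7 (Rab34, Cited4, Hbb-bs, Hbb-bt, Fkbp11, Catsperz and Fnbp1l) were called under all 21 alternatives, 0 changed sign, and 17 moved in fold by over 1.5 times under some alternative. Of the uncalled ones, 6 were called under some alternative, among them Arid3a without miR-155 array 2. Dhcr7 turned to 0.01 with array medians made equal and Ube2c to -0.08 without miR-155 array 2 (-0.08 to 0.88 with 1 array left out). Only 2 miR-155 arrays carried the miR-155 arm, and genes near background, such as the 8 rises undetected there, have bounds only.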
